A study of Saccharomyces cerevisiae with 8 samples.

Results

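The effect of a high-copy PDE2 plasmid on the transcriptome of ρ0 yeast cells, which lack mitochondrial DNA (mtDNA), is described here gene by gene. The members are all genes with enough fragments for a test, compared between the 2 libraries from WT + 2µ-URA3-PDE2 cells without mtDNA (ρ0 PDE2 below) and the 2 from WT + 2µ-URA3 vector cells without mtDNA (ρ0 vector). Of 7105 genes in the deposited table, 5832 had enough fragments to be tested. The filter asked for enough fragments in at least 2 of the 8 libraries, whichever they were. A gene of few fragments could thus enter through the group in which it was high. The 4 libraries compared are of 8 in the series, all of which entered the fit. Both groups were cultures of the diploid strain BY4743, which carries his3Δ1, leu2Δ0 and ura3Δ0 on both homologues and was grown without uracil to hold the plasmid. Both had been made ρ0 with 25 µg/ml ethidium bromide for 24 h, and the drug was present at harvest. WT + 2µ-URA3 vector cells with mtDNA (ρ+ vector), which received no ethidium bromide, and ρ0 cells with a TIP41 plasmid (ρ0 TIP41) were measured alongside, 2 libraries each, so loss of mtDNA and exposure to the drug cannot be told apart in these libraries. Replicates are numbered 0 and 1 and were performed by different experimenters.

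PDE2 encodes the high-affinity phosphodiesterase that hydrolyzes cAMP. In budding yeast, Ras proteins stimulate adenylate cyclase, cAMP releases the catalytic subunits of protein kinase A (PKA) from their inhibitor Bcy1p, and active PKA favours growth and fermentation while holding back the general stress response of Msn2p and Msn4p. Cells without mtDNA cannot respire, have a lowered potential across the inner mitochondrial membrane, and are known for higher expression of iron uptake genes, drug efflux pumps and the retrograde targets that feed glutamate synthesis.

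The groups were set apart by the insert of the plasmid, which is shown first. The parts of the cloning primers that match the genome (R64) set the ends of the cloned segment, and each matches at 1 place only:

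Primer 614, chrXV:1012761-1012790, plus strand: atctggcataataaagttgattgtcttgac

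Primer 615, chrXV:1015335-1015360, minus strand: atttcatgaacttacgggcttgtatg

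The segment between them is chrXV:1012761-1015360, 2600 bases, and PDE2 (YOR360C, chrXV:1013241-1014821, minus strand) is the only annotated gene inside it, with 480 bases beyond its stop and 539 before its start. The segment begins 1 base after VTS1 and ends 1 base before PRT1. Neither neighbour passed the test. VTS1 had 111 and 91.3 CPM (the gene's fragments scaled to a common library total, with TMM factors) in ρ0 PDE2 cells, against 140 and 88.8 CPM in ρ0 vector cells (log2 fold change −0.19 ± 0.24, adjusted p = 0.713). PRT1 had 607 and 668 CPM in ρ0 PDE2 cells, against 604 and 556 CPM in ρ0 vector cells (0.14 ± 0.15, adjusted p = 0.655). All adjusted p-values are Benjamini-Hochberg values over the genes tested, two-sided, from edgeR's quasi-likelihood test on 1 fit of the 8 libraries unless another tool is named, ± is the standard error (SE) on the log2 scale, and a gene is called at an adjusted p under 0.05.

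PDE2 transcript was raised in both libraries from PDE2 transformants. Its level was 581 and 639 CPM in ρ0 PDE2 cells (replicates 0 and 1), against 184 and 153 CPM in ρ0 vector cells, a log2 fold change of 1.86 ± 0.17 or 3.62-fold (adjusted p = 4.67e-05). The other libraries had 160 and 114 CPM (ρ0 TIP41) and 137 and 128 CPM (ρ+ vector), so the ρ0 PDE2 libraries stood above the other 6. The difference from ρ0 TIP41 cells was 2.15 ± 0.17 on the log2 scale (adjusted p = 8.26e-06). TIP41 itself had 67.5 and 52.1 CPM in ρ0 PDE2 cells, against 51.5 and 60.9 CPM in ρ0 vector cells (0.07 ± 0.19, adjusted p = 0.866), with 759 and 600 CPM where it was on the plasmid.

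URA3, which encodes orotidine-5′-phosphate decarboxylase and is the marker of every plasmid, went the other way. With ura3Δ0 on the chromosomes, its fragments come from the plasmid. It had 1915 and 2700 CPM in ρ0 PDE2 cells, against 16950 and 15617 CPM in ρ0 vector cells, with 5658 and 7211 CPM in ρ0 TIP41 cells and 13417 and 14590 CPM in ρ+ vector cells. The ρ0 PDE2 libraries were the lowest of the 8. The log2 fold change was −2.82 ± 0.21, 7.05-fold lower (adjusted p = 5.81e-06), and that from ρ0 TIP41 cells −1.48 ± 0.20 (adjusted p = 0.00187; 0.096 without ρ0 PDE2 replicate 0, at −1.24). In RNA from whole cultures, a lower marker level in each cell and fewer cells that carry the plasmid cannot be told apart.

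**Figure D1:**
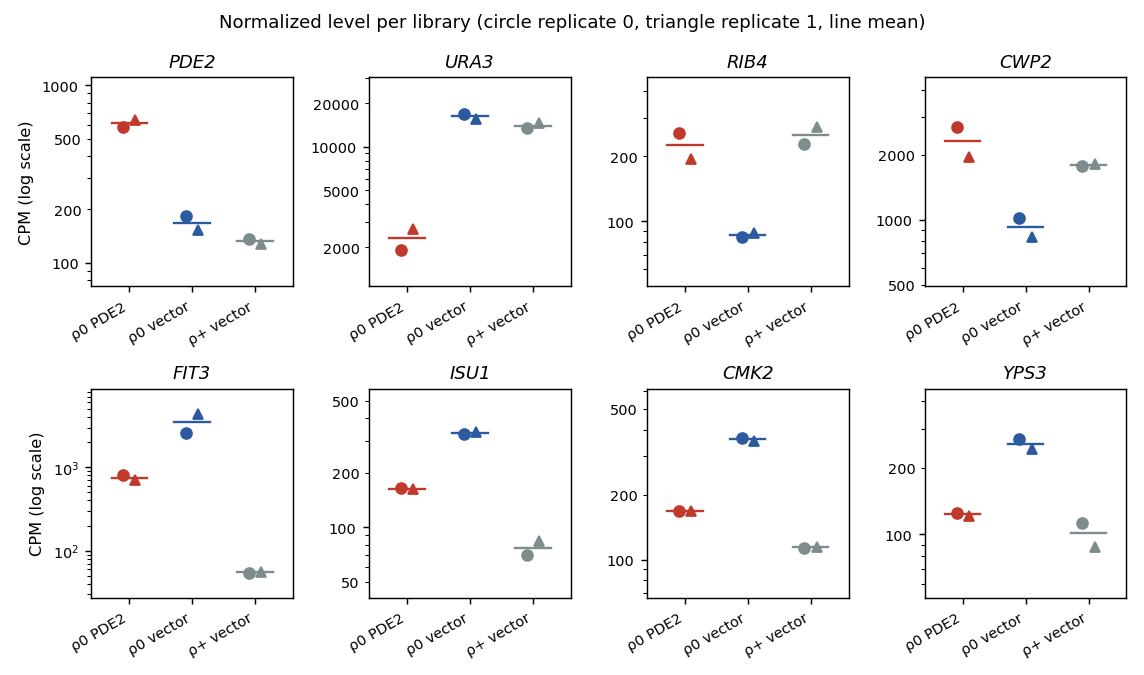
CPM (log axis) of PDE2, URA3 and 6 called genes in the libraries of ρ0 PDE2, ρ0 vector and ρ+ vector cells; circles are replicate 0, triangles replicate 1 and lines the group mean. PDE2 at 581 and 639 CPM and URA3 at 1915 and 2700 CPM in ρ0 PDE2 cells do not overlap the ρ0 vector libraries in either direction, and RIB4, CWP2, FIT3, ISU1, CMK2 and YPS3 in ρ0 PDE2 cells lie nearer to ρ+ vector than the ρ0 vector libraries do.

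The libraries and labels were checked as follows. Fragments in genes came to 1796286 and 3053408 in ρ0 PDE2 cells and 2761861 and 2334101 in ρ0 vector cells, within a range of 1389579 to 4884282 in the series. All 55 genes of mtDNA were at 0 fragments in the 6 ρ0 libraries, but the ρ+ libraries held only 9 and 6 such fragments in this polyadenylated RNA, so this is a weak check of the ρ0 state. LEU2 was at 0 fragments in every library, and MFA1 and MFA2, pheromone genes silent in diploids, were at 0 or 1. Other markers were not near 0. HIS3 had 110 to 339 fragments, and the haploid-specific genes SAG1 and STE6 had 75 to 301 and 31 to 129. The 21 haploid-specific genes summed to 314 and 327 CPM in ρ0 PDE2 cells and 408 and 396 CPM in ρ0 vector cells, against 250 and 240 CPM in ρ+ vector cells; their part in the results was not tested. The study counts the 8 libraries as biological samples; whether the cultures of a group came from separate transformants is not given in the sources used here, so p-values measure the spread between these samples.

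Across the transcriptome the changes were modest. In all, 134 of 5832 genes were called (2.3%), 76 of them higher in ρ0 PDE2 than in ρ0 vector cells (1.3%) and 58 lower (0.995%), and 8 of the higher and 17 of the lower ones differed by more than 2-fold. The median size of a called log2 fold change was 0.75. The number of calls depended on the libraries and the model. With replicate number as a block, 571 genes were called (9.79%), 352 higher (6.04%) and 219 lower (3.76%), all 134 among them. Leaving out 1 library gave 25 calls when that was ρ0 PDE2 replicate 0, 74 for its replicate 1, 423 without ρ0 vector replicate 0, 48 without ρ0 vector replicate 1, 63 without ρ+ vector replicate 0, 56 without its replicate 1, 80 without ρ0 TIP41 replicate 0 and 91 when its replicate 1 was dropped. A fit of only the 4 libraries called 11, limma on log2(FPKM + 1) called 6 and DESeq2 called 247.

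The replicate pairs bear on this. The log2 ratio of ρ0 PDE2 to ρ0 vector within replicate 0 and that within replicate 1 had the same sign in 66.1% of 5832 genes (r = 0.38, a description across genes, whose values come from the same 4 libraries). All 134 called genes had the same sign in both pairs and no overlap between the groups, but 2906 of all genes tested (49.8%) did not overlap either, so the lack of overlap says little by itself.

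**Figure D2:**
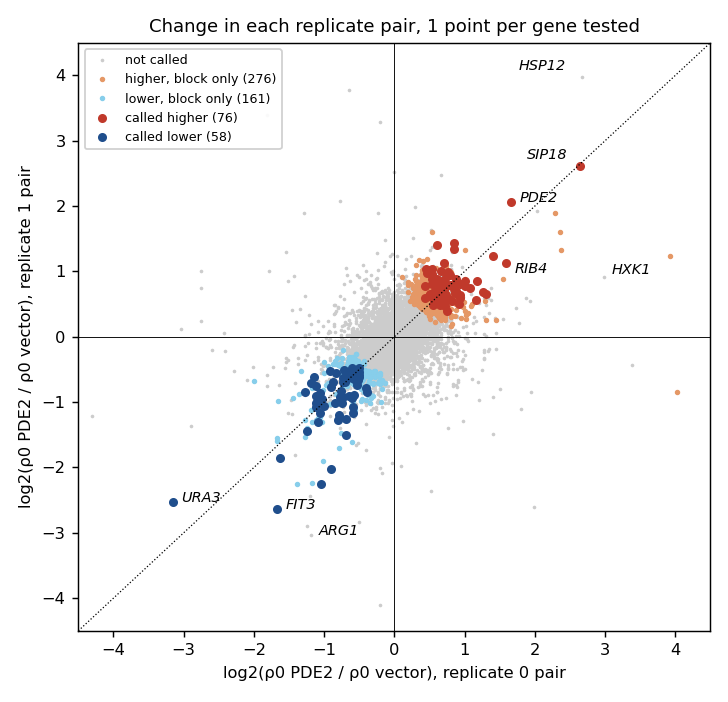
Log2 ratio of ρ0 PDE2 to ρ0 vector CPM within replicate 0 (x axis) and within replicate 1 (y axis), 1 point per gene tested. The 76 genes called higher and 58 called lower lie in the same-sign quadrants, as do all but 1 of the 276 and 161 genes called higher and lower only with the replicate block; 3 genes lie outside the axes.

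Of the 134 calls, 17 were kept without each of the 8 libraries in turn. They are PDE2, RIB4, CWP2 and YDL086W, which rose, and URA3, FIT3, CMK2, ISU1, PCL5, YPS3, CHS1, MCH5, DIA1, UPS2, GPI18, SRL3 and IRC14, which fell. CMK2, FIT3 and RIB4 were also called under all 10 other settings. The other 117 calls were lost without at least 1 library, with the direction kept in each of those fits. IRC14 (YOR135C) stands next to IDH2 (YOR136W), also called lower, in locus number. Whether fragments of IDH2 were counted for IRC14 was not tested.

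Riboflavin genes gave some of the steadiest differences. RIB4 (YOL143C, chrXV:54595-55104, minus strand), which encodes lumazine synthase of riboflavin synthesis, had 256 and 194 CPM in ρ0 PDE2 cells, against 85.0 and 88.4 CPM in ρ0 vector cells, a rise of 1.37 ± 0.16 or 2.59-fold (adjusted p = 0.000494). Its level in ρ+ vector cells was 228 and 272 CPM, so the ρ0 vector libraries were the low ones. MCH5 (chrXV:889867-891432, minus strand), which encodes the riboflavin transporter of the plasma membrane, had 127 and 145 CPM in ρ0 PDE2 cells, against 276 and 271 CPM in ρ0 vector cells (−1.0 ± 0.14, adjusted p = 0.00139), and 132 and 118 CPM in ρ+ vector cells. MCH5 was likewise lower than in ρ0 TIP41 cells, which had 325 and 292 CPM (−1.18 ± 0.14, adjusted p = 0.000551), a call kept without each library in turn, in a comparison that called 23 genes (0.394%). RIB4 exceeded its 116 and 132 CPM in ρ0 TIP41 cells by 0.86 ± 0.15 (adjusted p = 0.0239), but that call was lost without either ρ+ vector library, either ρ0 TIP41 library or ρ0 PDE2 replicate 0 (0.67 to 0.96, adjusted p up to 0.333). No other step of riboflavin synthesis that was looked at passed. RIB1, RIB3, RIB5 and RIB7 had log2 fold changes of −0.42, −0.19, −0.13 and −0.29 with adjusted p of 0.268 or more. The riboflavin genes were picked after their values were seen.

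The genes of the cAMP-PKA pathway other than PDE2 itself did not pass. Of 18 tested, PDE2 alone was called, and the median log2 fold change was −0.06, against −0.02 over all genes. PDE1, the low-affinity phosphodiesterase, was at −0.39, CYR1, adenylate cyclase, at −0.25, BCY1, the regulatory subunit of PKA, at 0.11, and TPK2 and TPK3, for catalytic subunits, were at −0.46 and 0.46. RAS1, a GTPase upstream of the cyclase, at 0.43 and IRA2, which inactivates Ras, at −0.43 passed only with the replicate block (adjusted p = 0.0243 and 0.0322). The transcript levels say nothing of cAMP or of kinase activity, which were not measured in these libraries.

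Among 17 transcription factors and kinases under PKA, 0 were called by edgeR, DESeq2 or limma (1 at an unadjusted p under 0.05), and the median was −0.10. MSN4, a stress factor, at 0.53 and ADR1, an activator of glucose-repressed genes, at 0.49 passed with the block alone.

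Stress genes that PKA holds back are the group most often used to read this pathway. Their promoters carry the stress response element, whose core AGGGG is found by Msn2p and Msn4p. Stretches of 100 bases before 3 of these genes are shown because these genes had some of the highest ratios of the comparison. Capitals mark AGGGG or its reverse complement CCCCT, and each stretch reads in the direction of the gene (R64):

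HSP12, chrVI:106804-106903, plus strand: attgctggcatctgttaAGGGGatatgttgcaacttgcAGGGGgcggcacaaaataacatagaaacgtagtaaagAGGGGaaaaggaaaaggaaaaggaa

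HSP26, chrII:381514-381613, plus strand: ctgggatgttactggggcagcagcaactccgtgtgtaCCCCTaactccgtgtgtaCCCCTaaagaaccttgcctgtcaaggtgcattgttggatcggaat

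SIP18, chrXIII:610592-610691, plus strand: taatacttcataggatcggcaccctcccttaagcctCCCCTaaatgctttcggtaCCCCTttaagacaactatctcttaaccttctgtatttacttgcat

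HSP12, a small membrane-associated heat shock protein, had 230 and 71.0 CPM in ρ0 PDE2 cells, against 35.7 and 4.03 CPM in ρ0 vector cells, with 36.0 and 8.84 CPM in ρ0 TIP41 cells and 15.4 and 17.5 CPM in ρ+ vector cells. Replicate 0 was above replicate 1 in all ρ0 groups, and ρ0 PDE2 was above ρ0 vector in both pairs and overall. With that spread the log2 fold change of 2.84 ± 1.14 did not pass (adjusted p = 0.287; 0.0771 with the block). HSP26, a small heat shock chaperone, had 20.7 and 8.79 CPM in ρ0 PDE2 cells, against 3.60 and 3.23 CPM in ρ0 vector cells (2.01 ± 0.57, adjusted p = 0.0788). It passed with the block (adjusted p = 0.00347).

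SIP18, a hydrophilic protein of osmotic stress, was the member of these lists that passed without the block, on few fragments. It had 12 and 15 fragments in ρ0 PDE2 cells, against 2 and 1 in ρ0 vector cells, a ratio of 10.2 scaled by library size (95% exact interval 3.1 to 52.4, counting error only; adjusted p = 0.0445). Its call was lost without any single library. The fragment filter could admit a gene this low in ρ0 vector cells through another group. HXT7, a high-affinity glucose transporter, had 10.7 and 4.39 CPM in ρ0 PDE2 cells, against 1.80 and 0.807 CPM in ρ0 vector cells (2.35 ± 0.65, adjusted p = 0.068, or 0.0129 with the block). HXK1, a hexokinase that shares its deposited locus with another gene, had 157 and 21.6 CPM in ρ0 PDE2 cells, against 19.4 and 11.3 CPM in ρ0 vector cells, a difference that rested mainly on replicate 0 (adjusted p = 0.345). ARO9, an aromatic aminotransferase that also shares its locus, had 51.5 and 24.3 CPM in ρ0 PDE2 cells, against 12.2 and 6.05 CPM in ρ0 vector cells and 143 and 231 CPM in ρ+ vector cells (adjusted p = 0.379).

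As lists, these genes had few calls, and the replicate pairs did not always move alike. Of 54 Msn2p and Msn4p targets tested, edgeR called 0 (9 at an unadjusted p under 0.05), limma 0 and DESeq2 1, lower. With the block 3 passed higher (6.04% of all genes did) and 2 lower (3.76%), counts near those shares. The median was 0.08, against −0.02 for all genes, and it was 0.36 within replicate 0 and −0.17 within replicate 1. The higher ones were HSP26, SOL4, a 6-phosphogluconolactonase (28.4 and 24.3 CPM in ρ0 PDE2 cells, against 9.36 and 12.9 CPM in ρ0 vector cells), and ALD3, an aldehyde dehydrogenase. The lower ones included HSP104, a disaggregase, with 501 and 531 CPM in ρ0 PDE2 cells, against 797 and 869 CPM in ρ0 vector cells (−0.69, adjusted p = 0.0177 with the block). CTT1, cytosolic catalase and a standard reporter of the response, was at 0.45 (adjusted p = 0.259). Of 16 Gis1p and post-diauxic genes, 1 was called higher (1.3% of all genes were) and 5 passed higher with the block (6.04%), at a median of 0.20. Of 21 trehalose and glycogen genes, 0 were called by edgeR, DESeq2 or limma (3 at an unadjusted p under 0.05) and 2 passed with the block, GSY1, glycogen synthase, and UGP1 (median 0.00). The pair medians of that list were 0.26 (replicate 0) and −0.13 (replicate 1), and those of the Gis1p list 0.47 and 0.21.

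AGGGG or its complement occurred within 600 bases before to 50 after the start of 90.9% of the Msn2p and Msn4p targets and of 41.8% of all 6002 RefSeq protein-coding genes. It occurred in 38.9% of the 72 protein-coding genes called higher and in 50.9% of the 57 called lower. In a window of 250 bases before the start the shares were 67.3%, 21.6%, 19.4% and 17.5%; the longer window was chosen after the data were seen, here and for the other motifs below. Among the 24 protein-coding genes tested with a log2 fold change over 1, whether called or not, it occurred in 62.5% within 600 bases and 37.5% within 250.

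**Figure D3:**
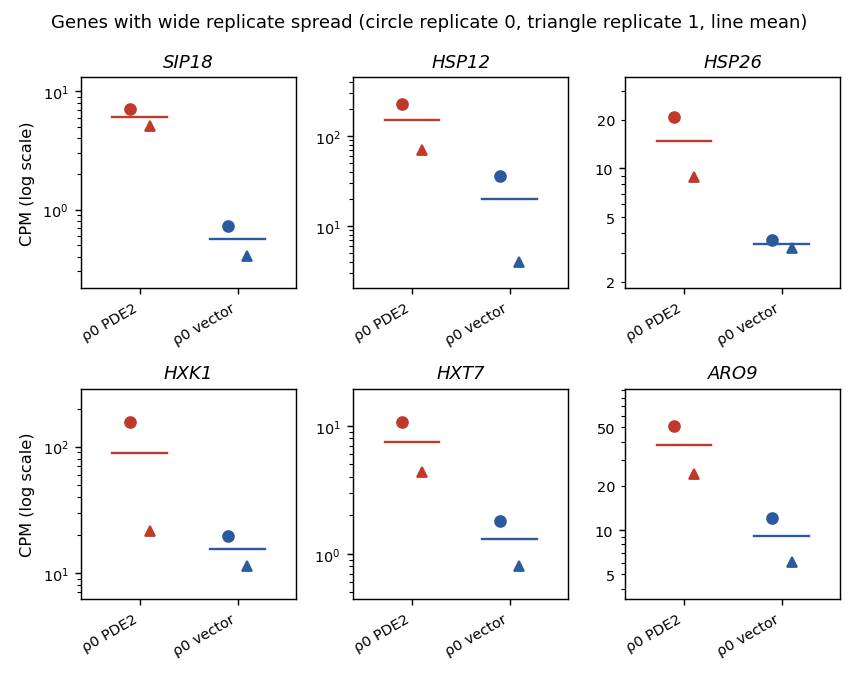
CPM (log axis) of 6 genes known to respond to stress or nutrients, in ρ0 PDE2 and ρ0 vector cells; circles are replicate 0 and triangles replicate 1. HSP12 runs from 71.0 to 230 CPM in ρ0 PDE2 cells and from 4.03 to 35.7 CPM in ρ0 vector cells. The distance between replicates of a group is large beside that between the groups for HSP12 and HXK1. For ARO9 the groups lie farther apart than the replicates do.

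The iron regulon list had the most lower calls and the lowest median of the 33 lists. Beside other members such as ISU1 and PCL5, it holds iron uptake genes. Aft1p and Aft2p, which sense the output of mitochondrial iron-sulfur cluster assembly, drive them through a core TGCACCC, marked in capitals with its reverse complement GGGTGCA in the stretches before FIT3 and FIT2, which differed most among the abundant members of the list, and ISU1, called in every leave-out (R64):

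FIT3, chrXV:1061232-1061331, minus strand: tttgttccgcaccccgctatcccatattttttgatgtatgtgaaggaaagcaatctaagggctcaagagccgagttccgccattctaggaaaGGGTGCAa

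FIT2, chrXV:1059195-1059294, plus strand: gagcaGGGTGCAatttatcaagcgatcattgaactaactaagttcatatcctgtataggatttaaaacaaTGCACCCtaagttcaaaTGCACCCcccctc

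ISU1, chrXVI:297255-297354, plus strand: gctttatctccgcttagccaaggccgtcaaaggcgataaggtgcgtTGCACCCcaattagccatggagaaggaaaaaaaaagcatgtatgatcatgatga

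The core occurred within 600 bases of the start in 62.9% of the iron list, 12.3% of genes called lower (7 of 57), 1.39% of genes called higher and 2.85% of all genes. Within 250 bases the shares were 37.1% of the list, 7.02% of genes called lower (4 of 57), 0 of the 72 called higher and 1.3% of all genes. PCL5 and FRE1, members of the list that were called lower, had 0 matches within 600 bases.

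Of 35 iron regulon genes tested, 6 were called lower and 0 higher, against 0.995% of all genes called lower. With the block 20 were lower, where 3.76% of all genes were, and 0 higher. The median log2 fold change was −0.56, 32 of 35 were negative, and 30 were lower within both pairs. Their summed level was 6255 and 7271 CPM in ρ0 PDE2 cells, against 10429 and 15609 CPM in ρ0 vector cells, with 3008 and 3581 CPM in ρ+ vector cells. The ρ0 PDE2 libraries lay between the other groups. Between ρ0 vector and ρ+ vector cells, 25 of the 35 were called higher, where 7.49% of all genes were, and 1 lower. ρ0 vector replicate 1 was the highest, and the count of called members ran from 3 (without that library, either ρ+ vector library or ρ0 PDE2 replicate 0) to 16 (without ρ0 vector replicate 0).

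FIT3 (YOR383C, chrXV:1060441-1061055, minus strand), a cell wall mannoprotein that retains siderophore iron, had 800 and 705 CPM in ρ0 PDE2 cells, against 2553 and 4387 CPM in ρ0 vector cells, a drop of 4.61-fold (−2.21 ± 0.22, adjusted p = 0.000263). Its level in ρ+ vector cells was 54.5 and 56.1 CPM, so it stayed far above that group in every ρ0 library. ISU1, the scaffold on which iron-sulfur clusters are built, had 164 and 162 CPM in ρ0 PDE2 cells, against 327 and 337 CPM in ρ0 vector cells (−1.03 ± 0.13, adjusted p = 0.000779); it shares its deposited locus with another gene. FRE3, a ferric reductase for siderophores, had 45.0 and 62.2 CPM in ρ0 PDE2 cells, against 94.4 and 140 CPM in ρ0 vector cells (−1.10 ± 0.22, adjusted p = 0.0272). ARN1, a siderophore transporter, at −0.86 (adjusted p = 0.0445), FRE1, a plasma membrane reductase, at −0.56 (adjusted p = 0.0485) and PCL5, a cyclin for Pho85p that promotes Gcn4p turnover, at −1.13 (adjusted p = 0.00401) complete the called members. The calls of FRE3, ARN1 and FRE1 were lost without either ρ+ vector library, ρ0 vector replicate 1 or ρ0 PDE2 replicate 0, that of ARN1 also without ρ0 PDE2 replicate 1, and that of FRE1 without every library but ρ0 vector replicate 0 (log2 fold changes of −1.38 to −0.43 in the leave-outs).

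FIT2 was lower in the same way, at 379 and 390 CPM in ρ0 PDE2 cells, against 771 and 1461 CPM in ρ0 vector cells, but passed only with the block (−1.54 ± 0.34, adjusted p = 0.068, or 1.11e-05 with the block). FIT1 had 23.7 and 30.1 CPM in ρ0 PDE2 cells, against 56.9 and 228 CPM in ρ0 vector cells (adjusted p = 0.252). The high-affinity uptake complex itself did not pass. FET3, its ferroxidase, had 1262 and 1586 CPM in ρ0 PDE2 cells, against 1461 and 1842 CPM in ρ0 vector cells (−0.21 ± 0.20, adjusted p = 0.598), and FTR1, its permease, 635 and 641 CPM in ρ0 PDE2 cells, against 930 and 801 CPM in ρ0 vector cells (−0.44 ± 0.16, adjusted p = 0.15). FMP23, a mitochondrial protein tied to iron homeostasis that was outside the list, was called lower (−1.84 ± 0.42, adjusted p = 0.04), a call kept only in the leave-out of ρ0 vector replicate 0 (−2.33 to −1.15).

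ρ0 TIP41 cells had similar levels of these genes, for FIT3 1045 and 1141 CPM and for ISU1 159 and 152 CPM. The differences of ρ0 PDE2 from ρ0 TIP41 were −0.54 ± 0.21 for FIT3 (adjusted p = 0.596) and 0.07 ± 0.13 for ISU1 (adjusted p = 0.961).

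**Figure D4:**
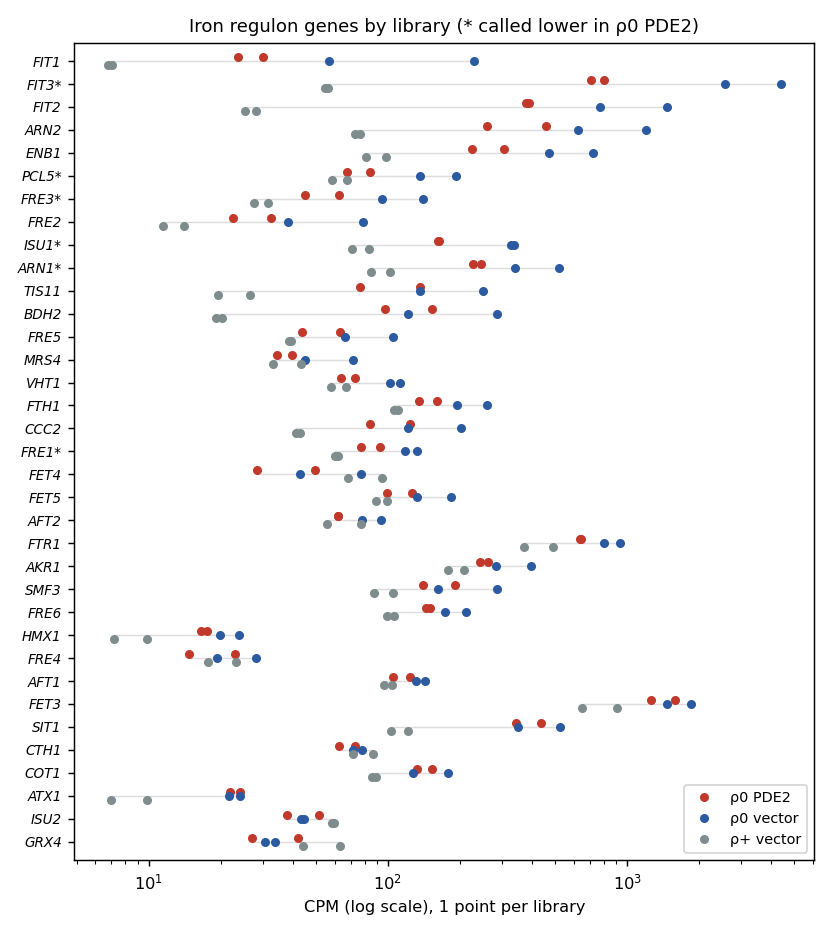
CPM (log axis) of the 35 iron regulon genes tested in ρ0 PDE2, ρ0 vector and ρ+ vector libraries; an asterisk marks the 6 genes called lower in ρ0 PDE2 than in ρ0 vector cells. FIT3 spans the widest range, with ρ0 PDE2 at 800 and 705 CPM between ρ0 vector at 2553 and 4387 CPM and ρ+ vector at 54.5 and 56.1 CPM.

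Of the biotin genes looked at, all chosen after their values were seen, 2 fell. VHR1, the activator of biotin uptake genes, had 191 and 204 CPM in ρ0 PDE2 cells, against 317 and 329 CPM in ρ0 vector cells (−0.71 ± 0.12, adjusted p = 0.00901; the call was lost without ρ0 PDE2 replicate 0, at a log2 fold change within −0.76 to −0.66). BIO5, a transporter of a biotin precursor, had 49.7 and 71.0 CPM in ρ0 PDE2 cells, against 118 and 194 CPM in ρ0 vector cells (−1.34 ± 0.27, adjusted p = 0.0477; lost without each library but ρ0 vector replicate 0, −1.65 to −0.94). Both were low in ρ+ vector cells, at 102 and 96.8 CPM for VHR1 and 22.4 and 25.2 CPM for BIO5. VHT1, the biotin transporter and a member of the iron list, was at −0.64 (adjusted p = 0.0691), and the biotin synthesis genes BIO2, BIO3 and BIO4 were at 0.69, −0.08 and −0.08 (adjusted p = 0.0696 or more); VHT1 and BIO2 passed with the block.

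Drug efflux genes had lower levels, mostly short of a call. Pdr1p and Pdr3p act through elements TCCGTGGA and TCCGCGGA, in capitals in a stretch before PDR5 (R64):

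PDR5, chrXV:619440-619539, plus strand: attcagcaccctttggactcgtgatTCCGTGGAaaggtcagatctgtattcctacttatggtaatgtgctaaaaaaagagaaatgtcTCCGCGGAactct

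These letters, on either strand, occurred within 600 bases of the start in 69.6% of the drug resistance list, 7.02% of genes called lower and 2.1% of all genes. Within 250 bases they occurred in 17.4% of the list, 0 of the 57 genes called lower and 0.616% of all genes. PDR5, the main multidrug efflux pump, had 5642 and 5920 CPM in ρ0 PDE2 cells, against 8533 and 11258 CPM in ρ0 vector cells and 1073 and 1163 CPM in ρ+ vector cells (−0.78 ± 0.17, adjusted p = 0.0356). YMR102C had 449 and 536 CPM in ρ0 PDE2 cells, against 707 and 999 CPM in ρ0 vector cells (−0.79 ± 0.19, adjusted p = 0.0458). These were the 2 called of 23 tested (0.995% of all genes were called lower), and the median was −0.31. With the block 6 were lower (3.76% of all genes were). Of the 8 leave-outs, both calls were kept only in that of ρ0 vector replicate 0, where 8 members were called (−1.02 to −0.52 for both genes in the leave-outs). ρ0 TIP41 cells had 4106 and 4438 CPM of PDR5, from which ρ0 PDE2 cells differed by 0.44 ± 0.17 (adjusted p = 0.586).

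Of the called members of the retrograde list, which was drawn from background knowledge, 2 fell and 1, GDH1, rose. IDH1 and IDH2, the subunits of mitochondrial NAD-dependent isocitrate dehydrogenase, fell. IDH1 had 655 and 460 CPM in ρ0 PDE2 cells, against 1389 and 1135 CPM in ρ0 vector cells and 99.9 and 109 CPM in ρ+ vector cells (−1.18 ± 0.19, adjusted p = 0.00479), and IDH2 changed by −0.97 ± 0.18 (adjusted p = 0.0106). CIT2, peroxisomal citrate synthase and the standard reporter of the pathway, had 327 and 171 CPM in ρ0 PDE2 cells, against 712 and 416 CPM in ρ0 vector cells; replicates differed, each pair showed the lower level, and it passed only with the block (−1.19, adjusted p = 0.257, or 2.31e-05 with the block). ACO1, aconitase, and DLD3, a D-lactate dehydrogenase, also passed only with the block. GDH1, NADP-dependent glutamate dehydrogenase, rose to 531 and 472 CPM in ρ0 PDE2 cells, against 313 and 236 CPM in ρ0 vector cells (0.86 ± 0.17, adjusted p = 0.0173). Of the 16 genes tested on this list, 2 were called lower (0.995% of all genes were) and 1 higher (1.3%), and the median was −0.27. The list also holds regulators, RTG1, RTG2, RTG3, MKS1, BMH1 and BMH2. Log2 fold changes were negative in 10 members, and the positive ones were GDH1, PYC1, RTG1, RTG2, BMH1 and BMH2. Both IDH calls were lost when ρ0 PDE2 replicate 1 was left out (IDH1 between −1.45 and −0.95, IDH2 between −1.25 and −0.73 in the leave-outs), and GDH1 was not without ρ0 vector replicate 1 or ρ0 PDE2 replicate 0 (0.68 to 1.08).

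A later step of the tricarboxylic acid cycle rose. LSC2, a subunit of succinyl-CoA ligase, had 98.9 and 69.3 CPM in ρ0 PDE2 cells, against 46.5 and 41.2 CPM in ρ0 vector cells (0.92 ± 0.19, adjusted p = 0.0301; lost without either ρ+ vector library, ρ0 vector replicate 1 or ρ0 PDE2 replicate 0, 0.66 to 1.17). KGD2, LSC1 and SDH3, at 0.42, 0.40 and 0.71, passed only with the block. Of 17 cycle genes, 1 was called higher (1.3% of all genes were) and 2 lower (0.995%). With the block 4 were higher (6.04%) and 3 lower (3.76%).

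Of the nuclear genes of the respiratory chain, most had a higher level by a small amount and few passed. Of 22 genes of complexes III and IV and the NADH dehydrogenases and cytochrome c beside them, 2 were called higher (1.3% of all genes were). With the block 7 were higher (6.04% of all genes were) and 1 lower (3.76%). The median of the 22 genes was 0.47. Their summed level was not higher, at 1907 and 1656 CPM in ρ0 PDE2 cells, against 2044 and 1694 CPM in ρ0 vector cells. NDE1, the external NADH dehydrogenase, was the most abundant member, with 937 and 902 CPM in ρ0 PDE2 cells, against 1399 and 1150 CPM in ρ0 vector cells, and was the 1 lower with the block (−0.47). COR1, a core subunit of complex III, had 166 and 119 CPM in ρ0 PDE2 cells, against 86.8 and 76.7 CPM in ρ0 vector cells (0.79 ± 0.17, adjusted p = 0.0302), and COX13, of complex IV, had 60.4 and 60.2 CPM in ρ0 PDE2 cells, against 36.0 and 31.9 CPM in ρ0 vector cells (0.82 ± 0.16, adjusted p = 0.0185). In ρ+ vector cells COX13 had 68.1 and 55.4 CPM, overlapping the ρ0 PDE2 libraries, and 15 of the 22 were called lower in ρ0 vector than in ρ+ vector cells, where 6.38% of all genes were. ATP5, of the ATP synthase stalk, was the 1 called of 17 genes of that complex (0.67 ± 0.12, adjusted p = 0.0106; list median 0.37). The 3 called genes were not called without ρ0 vector replicate 1 or ρ0 PDE2 replicate 0 (0.55 to 1.02 over the leave-outs), COR1 also without either ρ+ vector library and COX13 also without ρ0 PDE2 replicate 1. From ρ0 vector to ρ0 TIP41 cells the median log2 fold changes were 0.58 for the 22 genes and 0.43 for the ATP synthase list. From ρ0 TIP41 to ρ0 PDE2 cells they were −0.10 and 0.03.

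Mitochondrial import genes (35 tested) had 0 calls by edgeR with or without the block, DESeq2 or limma (6 at an unadjusted p under 0.05; median 0.10). Mitochondrial ribosomal proteins (73 tested) had 0 calls by these tools (2 at an unadjusted p under 0.05) and 1 with the block (median −0.04).

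In oxidative defence and ergosterol synthesis, a few genes rose by less than 2-fold. TRX1, a cytosolic thioredoxin, had 159 and 151 CPM in ρ0 PDE2 cells, against 86.1 and 92.8 CPM in ρ0 vector cells (0.79 ± 0.13, adjusted p = 0.00479). CCP1, mitochondrial cytochrome c peroxidase, at 0.71 (adjusted p = 0.025) and SOD2, mitochondrial superoxide dismutase, at 0.70 (adjusted p = 0.0241) were the others of 34 to be called (median 0.26, 0 lower). Over all genes, 1.3% were called higher. With the block 7 of the 34 were higher (6.04% of all genes were) and 1 lower (3.76%). The lower one was GTO3, at −1.4 the farthest from 0 in this list. In ergosterol synthesis, 3 of 32 genes were called higher (1.3% of all genes were) and 0 lower, at a median of 0.28. With the block 8 were higher (6.04%) and 2 lower (3.76%). The 3 called were ERG5, sterol C-22 desaturase, at 0.74 (adjusted p = 0.0185), ERG20, farnesyl diphosphate synthase, at 0.69 (adjusted p = 0.0246), and ERG12, mevalonate kinase, at 0.57 (adjusted p = 0.0356). When ρ0 PDE2 replicate 0 was left out, 0 of the 6 were called, and when ρ0 vector replicate 1 was, TRX1 alone. The ergosterol genes also lost their calls without ρ0 PDE2 replicate 1, SOD2 and ERG12 without either ρ+ vector library, and ERG12 without either ρ0 TIP41 library (log2 fold changes of 0.49 to 0.95 in the leave-outs).

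**Figure D5:**
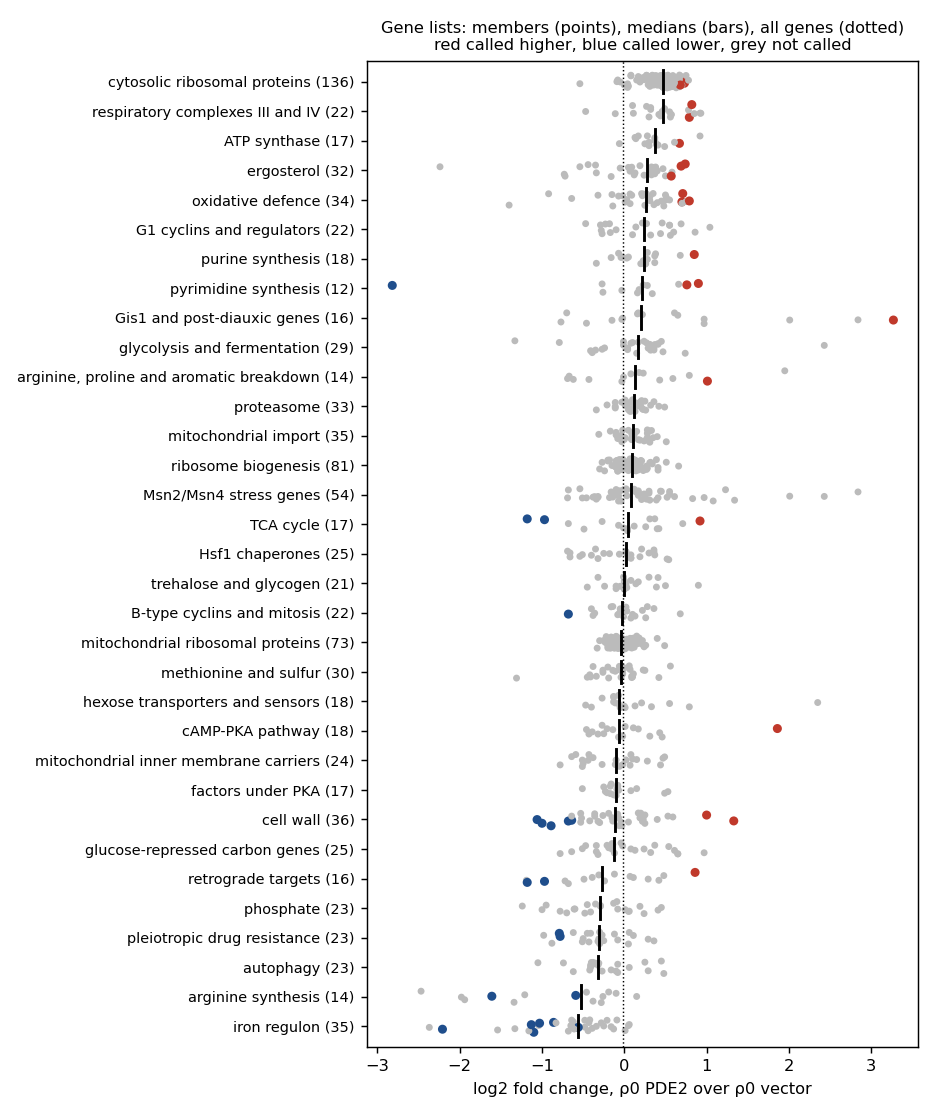
Log2 fold changes, ρ0 PDE2 minus ρ0 vector, of the tested members of 33 gene lists (1 point per gene, called higher in red and called lower in blue) with the median of each list. The iron regulon, at a median of −0.56, and cytosolic ribosomal proteins, at 0.47, lie on opposite sides of the median of −0.02 over all genes.

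The genes of cytosolic ribosomal proteins were higher as a body and called as few. Of 136 tested, 131 had a positive log2 fold change, 128 were higher within both pairs, and the median was 0.47 (0.35 in replicate 0, 0.64 in replicate 1). Their summed level was 181158 and 166527 CPM in ρ0 PDE2 cells, against 144254 and 108138 CPM in ρ0 vector cells, and 175865 and 157312 CPM in ρ+ vector cells. The ρ0 vector libraries, replicate 1 above all, were the low ones. RPL9A, RPS26A, RPL2A, RPL24B and RPL43A were called higher (0.68 to 0.73), where 1.3% of all genes were. With the block 75 passed higher, where 6.04% of all genes did, and 0 lower. The count was 107 without ρ0 vector replicate 0 and 0 without any other library. RPL9A, for one, had 1510 and 1567 CPM in ρ0 PDE2 cells, against 1077 and 773 CPM in ρ0 vector cells (adjusted p = 0.0485). Many of these genes are near-identical pairs, between which the assignment of fragments is uncertain. Of 81 ribosome biogenesis genes, which share the growth signals upstream, edgeR called 0 (7 at an unadjusted p under 0.05), limma 0 and DESeq2 1, 1 passed with the block, and the median was 0.09.

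Gene length moved with these values. The Spearman rho between a gene's length and its log2 fold change, over 5487 protein-coding genes, was −0.32, and −0.30 without the cytosolic ribosomal proteins (descriptions across genes of the same 4 libraries). Leaving those proteins out, the median log2 fold change was 0.13 for genes up to 600 bases and −0.17 for those over 2400 bases, and among the 874 longest genes 15 were called lower and 0 higher. The 37 other genes up to 600 bases with an average log2 CPM of 8 or more, as short and abundant as the ribosomal ones, had a median of 0.38, against the 0.47 of the ribosomal proteins. The part of length in the higher level of short genes, those of ribosomal proteins, ATP synthase and the respiratory complexes included, was not tested.

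Cell wall genes changed in both directions. Of 36 tested, 2 were called higher (1.3% of all genes were) and 5 lower (0.995%), with 3 higher (6.04%) and 8 lower (3.76%) in the fit with the block, and the median was −0.11. CWP2 (chrXI:259253-259531, plus strand), an abundant wall mannoprotein, had 2697 and 1967 CPM in ρ0 PDE2 cells, against 1024 and 836 CPM in ρ0 vector cells, a rise of 2.51-fold (1.33 ± 0.19, adjusted p = 0.00201), with 1787 and 1811 CPM in ρ+ vector cells. CWP1, its relative, had 434 and 292 CPM in ρ0 PDE2 cells, against 176 and 186 CPM in ρ0 vector cells (1.00 ± 0.21, adjusted p = 0.0349). That call was lost without either ρ+ vector library, either ρ0 vector library or ρ0 PDE2 replicate 0 (0.69 to 1.26).

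The wall genes called lower were YPS3, CHS1, YPS1, HSP150 and GSC2. YPS3, a GPI-anchored aspartic protease that shares its deposited locus with another gene, had 125 and 121 CPM in ρ0 PDE2 cells, against 268 and 242 CPM in ρ0 vector cells (−1.06 ± 0.14, adjusted p = 0.00139). YPS1, its neighbour on chromosome XII and relative, had 186 and 179 CPM in ρ0 PDE2 cells, against 313 and 363 CPM in ρ0 vector cells (−0.89 ± 0.14, adjusted p = 0.00479; lost without ρ0 PDE2 replicate 0). CHS1, the chitin synthase of wall repair, had 226 and 220 CPM in ρ0 PDE2 cells, against 460 and 428 CPM in ρ0 vector cells (−1.0 ± 0.13, adjusted p = 0.00139). HSP150, a wall protein, at −0.68 (adjusted p = 0.0419) and GSC2, an inducible catalytic subunit of glucan synthase, at −0.64 (adjusted p = 0.0384) were also lower, but each lost its call without any of 6 libraries, both ρ0 PDE2 libraries and both ρ+ vector libraries among them (−0.75 to −0.52). Outside the list, YLR194C, a GPI-anchored wall protein, changed by −0.95 ± 0.16 (adjusted p = 0.00511; lost without ρ0 PDE2 replicate 0).

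CMK2 (YOL016C, chrXV:294777-296120, minus strand), a calmodulin-dependent protein kinase, fell by nearly the same amount in each pair. It had 167 CPM in both ρ0 PDE2 libraries, against 364 and 355 CPM in ρ0 vector cells, 256 and 288 CPM in ρ0 TIP41 cells and 113 and 114 CPM in ρ+ vector cells (−1.11 ± 0.13, adjusted p = 0.000547; −1.12 to −1.09 in the leave-outs). RCN2, whose product binds calcineurin, had 63.9 and 62.2 CPM in ρ0 PDE2 cells, against 104 and 99.7 CPM in ρ0 vector cells (−0.70 ± 0.14, adjusted p = 0.0193; lost without ρ0 vector replicate 1 or either ρ0 PDE2 library). CMK2 and RCN2 were chosen after their values were seen.

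Several of these differences were also tested against ρ0 TIP41 cells, whose plasmid carries another gene. YPS3, with 245 and 261 CPM in ρ0 TIP41 cells, differed by −1.04 ± 0.14 (adjusted p = 0.00219), CHS1 by −0.69 ± 0.13 (adjusted p = 0.0369), CMK2 by −0.70 ± 0.13 (adjusted p = 0.0283) and YLR194C by −0.87 ± 0.16 (adjusted p = 0.0239). DIA1, a gene tied to invasive growth that shares its locus, had 91.2 and 91.3 CPM in ρ0 PDE2 cells, against 199 and 185 CPM in ρ0 vector and 151 and 178 CPM in ρ0 TIP41 cells (−0.85 ± 0.13 from TIP41, adjusted p = 0.00624). Of these 5 calls, that of YPS3 was lost without ρ0 PDE2 replicate 1, that of DIA1 without ρ0 TIP41 replicate 1 or either ρ0 PDE2 library, and those of CHS1, CMK2 and YLR194C without any ρ+ vector, ρ0 TIP41 or ρ0 PDE2 library; directions were kept (−1.02 to −0.61 in those fits). CWP2 did not pass, at 0.67 ± 0.18 (adjusted p = 0.271).

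Arginine synthesis genes were lower, unevenly between replicates. ARG3, ornithine carbamoyltransferase, had 7.70 and 7.77 CPM in ρ0 PDE2 cells, against 14.8 and 33.1 CPM in ρ0 vector cells (−1.61 ± 0.39, adjusted p = 0.0497). CPA1, of the arginine-specific carbamoyl phosphate synthetase, had 430 and 378 CPM in ρ0 PDE2 cells, against 617 and 597 CPM in ρ0 vector cells (−0.59 ± 0.14, adjusted p = 0.0458). ρ0 vector replicate 1 was the high library for ARG3. Among all genes tested, 0.995% were called lower, and 3.76% with the block. Of 14 genes, 2 were called lower, 4 with the block, and the median was −0.53; without ρ0 vector replicate 0, 7 were called, and 0 without any other library. In the opposite direction, CAR1, arginase, which opens arginine breakdown, had 88.2 and 111 CPM in ρ0 PDE2 cells, against 57.6 and 41.2 CPM in ρ0 vector cells (1.01 ± 0.19, adjusted p = 0.0151; lost without ρ0 vector replicate 1 or ρ0 PDE2 replicate 1, 0.80 to 1.29).

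Of the 11 pyrimidine genes tested beside the plasmid marker, 2 were called higher (1.3% of all genes were) and 0 lower. URA1, dihydroorotate dehydrogenase, had 747 and 762 CPM in ρ0 PDE2 cells, against 460 and 347 CPM in ρ0 vector cells and 986 and 1058 CPM in ρ+ vector cells (0.90 ± 0.16, adjusted p = 0.0106). URA4, dihydroorotase, had 173 and 170 CPM in ρ0 PDE2 cells, against 108 and 94.4 CPM in ρ0 vector cells (0.76 ± 0.13, adjusted p = 0.00709). The other 9 ran from −0.27 to 0.66 and did not pass, other than FUR1, uracil phosphoribosyltransferase, at 0.66 with the block. These levels were seen in cultures in which URA3, the last enzyme on the way to UMP, was at its lowest level of the series. A link between them was not tested. Dropping ρ0 PDE2 replicate 0 ended both calls, dropping its replicate 1 that of URA1 and dropping ρ0 vector replicate 1 that of URA4 (0.67 to 1.12). IMD2, IMP dehydrogenase of guanine nucleotide synthesis, had 71.0 and 80.5 CPM in ρ0 PDE2 cells, against 39.3 and 45.6 CPM in ρ0 vector and 32.0 and 34.8 CPM in ρ0 TIP41 cells (0.85 ± 0.15 from the vector, adjusted p = 0.0106, lost without ρ0 PDE2 replicate 1 at 0.74 to 0.96; 1.19 ± 0.16 from TIP41, adjusted p = 0.00187, or 0.055 and 0.0584 without ρ0 TIP41 replicate 0 and ρ0 PDE2 replicate 1).

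Single genes outside these groups included the histone pair HTA2 and HTB2, divergent neighbours for histones H2A and H2B. HTA2 had 514 and 393 CPM in ρ0 PDE2 cells, against 230 and 267 CPM in ρ0 vector cells (0.87 ± 0.16, adjusted p = 0.0106; 0.67 and not called without ρ0 PDE2 replicate 0), and HTB2 changed by 0.61 ± 0.14 (adjusted p = 0.0435; lost without any library but ρ0 vector replicate 0, 0.52 to 0.70). ADA2, a subunit of the SAGA coactivator, had 36.1 and 45.6 CPM in ρ0 PDE2 cells, against 19.8 and 17.8 CPM in ρ0 vector cells (1.14 ± 0.21, adjusted p = 0.0147; lost without ρ0 vector replicate 1 or ρ0 PDE2 replicate 1). Among the genes that fell, SRL3, a relative of the G1 inhibitor Whi5p, had 55.0 and 49.7 CPM in ρ0 PDE2 cells, against 99.0 and 101 CPM in ρ0 vector cells (−0.94 ± 0.14, adjusted p = 0.00401). GPI18, a mannosyltransferase of GPI anchor synthesis, had 114 and 98.0 CPM in ρ0 PDE2 cells, against 196 and 186 CPM in ρ0 vector cells (−0.85 ± 0.13, adjusted p = 0.00387), and UPS2, which regulates mitochondrial phospholipid, had 107 and 101 CPM in ρ0 PDE2 cells, against 182 and 179 CPM in ρ0 vector cells (−0.80 ± 0.12, adjusted p = 0.00401).

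Many gene groups known to follow carbon source and growth had no call without the block. Glycolysis and fermentation genes (29 tested) had 0 calls by edgeR and limma (9 at an unadjusted p under 0.05), 4 by DESeq2 and 3 with the block (2 higher, 1 lower), a median of 0.17 and a sum of 152367 and 147259 CPM in ρ0 PDE2 cells, against 118593 and 123760 CPM in ρ0 vector cells. TDH3, the main glyceraldehyde-3-phosphate dehydrogenase, had 27918 and 24848 CPM in ρ0 PDE2 cells, against 19368 and 19353 CPM in ρ0 vector cells (0.45, adjusted p = 0.15, or 0.0434 with the block). Hexose transporters (18 tested, 4 at an unadjusted p under 0.05), the proteasome (33 and 5), autophagy (23 and 4), phosphate uptake (23 and 9), sulfur metabolism (30 and 4) and G1 cyclins (22 and 6) had 0 calls by edgeR, DESeq2 or limma, and glucose-repressed carbon genes (25 and 4) had 0 by edgeR and limma and 1 by DESeq2. The block added calls in each of these lists. In it 4 of the 25 glucose-repressed genes were higher (6.04% of all genes were) and 0 lower, namely MDH2, malate dehydrogenase, ALD3 and ALD4, aldehyde dehydrogenases, and GUT2, glycerol-3-phosphate dehydrogenase. The block called 2 of 18 hexose genes, 2 of 33 proteasome genes, 2 of 22 G1 genes and 1 of 30 sulfur genes higher, against 6.04% of all genes. The proteasome count lay near that share and the sulfur count below it. The block called 2 of 23 autophagy genes lower, against 3.76% of all genes. Of the phosphate genes 1 was higher and 6 were lower with the block (3.76% of all genes were), PHO84, the high-affinity transporter, at −0.95 the farthest from 0 among them.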

How the data were processed

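RNA was from 8 BY4743 cultures in 4 groups of 2, from polyadenylated RNA read as paired ends. The authors used TopHat2 2.0.14 against R64, then Cuffdiff 2.2.1.1 (geometric normalization, corrections for multiple alignments and sequence bias). No strand setting is given in the sources used here, so antisense and overlapping genes cannot be separated. The estimated counts deposited by the authors are fragments per gene and library, 12.3% of those above 0 not whole (tolerance 0.001); 1420 of 7105 genes share a deposited locus. The FPKM values deposited by the authors are scaled between libraries and served 1 alternative each with a pseudocount of 1 and 0.1. Deposited p and q values of the authors' own comparisons were not used. Places are from RefSeq R64.

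Estimated counts were rounded and fitted in R 4.3.3 with edgeR 4.0.16 (filterByExpr, TMM, robust quasi-likelihood, 4 groups, 4 residual degrees of freedom). Each SE is |log2 fold change| over the square root of F. Alternatives used DESeq2 1.42.0 and limma 3.58.1. Same-numbered libraries deviated from their group means together (r = 0.20 to 0.52 over 6 pairs of groups, 5764 genes), so the numbers were taken to pair the samples; the main fit has no block. The 33 gene lists, from background knowledge, and the genes followed were chosen with earlier results of these data known. Named were PDE2, URA3, TIP41, neighbours of PDE2, the 15 largest called rises and falls, up to 6 called and 3 other members of each list, and the 10 largest of either direction called only with the block; from these and from genes chosen after their values were seen the text takes those it describes. The fit was tested on simulated data with known changes. Some results are not reported here.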

Additional observations from a re-analysis of the deposited data

How the results depend on the processing

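The 134 calls of ρ0 PDE2 against ρ0 vector (76 higher, 58 lower, 43 in a list) became 129 to 153 with RLE size factors, no filter, a 50-fragment filter or plasmid genes left out. With the replicate block they were 571 (352 higher, 219 lower, 209 in a list), and with the block on only the 4 libraries, added after the data were seen, 458 (261, 197 and 159). The 4 libraries without a block gave 11 (3, 8 and 5), DESeq2, which adjusted over 2217 genes, 247 (192, 55 and 125), and limma on log2(FPKM + 1) or log2(FPKM + 0.1) 6 (2, 4 and 2). Leaving out 1 library gave 25 to 423 (9 to 270 higher, 16 to 153 lower, 13 to 208 in a list). The 23 calls of ρ0 PDE2 against ρ0 TIP41 became 54 with the block, 201 with the block on 4 libraries, 12 on the 4 libraries, 2 under limma, and 9 to 36 in the leave-outs. The cause of these shifts was not tested. Fits with fewer libraries have fewer residual degrees of freedom, and so has the fit of 8 libraries with the block (3, against 4 without it). PDE2 was at 1.86 and 1.87 under limma, no longer called, and at 1.73 to 2.00 in the leave-outs, called; URA3 was called in every fit that held it (−3.09 to −2.59 in the leave-outs). Of 243 named genes, 4 changed sign anywhere, none among the 134: BDH2 (−1.17 to 0.07) and SMF3 (−0.77 to 0.04), positive without ρ0 vector replicate 1, VTS1 (−0.48 to 0.18), positive at 0.18 without ρ0 vector replicate 0, and TIP41 (−0.11 to 0.27), at −0.04 when ρ0 vector replicate 0 was dropped and −0.11 when ρ0 PDE2 replicate 0 was. All 134 were called with the block. Depth limits genes of few fragments, and 2 libraries a group limit all others.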
